A study of Saccharomyces cerevisiae with 4 samples.

Results

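The genes described here are 10 reading frames of budding yeast (Saccharomyces cerevisiae) that serve phosphate transport, phosphate storage and phosphatase activity, chosen by name from the 6207 reading frames of the array. They are the transporter genes PHO89 (YBR296C), PHO84 (YML123C) and PHO90 (YJL198W), the phosphatase genes PHO5 (YBR093C), PHO8 (YDR481C) and PHM8 (YER037W), the polyphosphate genes VTC1 (YER072W), VTC3 (YPL019C) and VTC4 (YJL012C), and the regulator gene SPL2 (YHR136C). Of these, 9 had a value on all 4 arrays and were tested, while PHO84 had a value on 2 arrays and was not tested. The experiment used an slt2 mutant, which lacks the mitogen-activated protein kinase of the cell wall integrity pathway. Cultures in rich medium at 24 °C were split, 1 part received zymolyase 100T, an enzyme preparation that digests cell wall glucan, at 5 units per ml, the other part received none, and RNA was collected at 3 h. Both parts therefore carry the slt2 mutation, and no wild type group served as a comparison. RNA of 2 cultures was compared on 4 two-colour arrays, with zymolyase RNA in Cy3 on arrays 1 and 3 and in Cy5 on arrays 2 and 4. The source label of the treated channel on array 3 reads wild type, against its title and its other channel. For SLT2 itself 0 of the 4 arrays held a value, and the deletion could not be checked in these data.

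Yeast takes up inorganic phosphate through high-affinity transporters, among them Pho84 and Pho89, and low-affinity transporters such as Pho90. When phosphate is scarce, the kinase complex of Pho80 and Pho85 is inhibited by Pho81, and the transcription factor Pho4 enters the nucleus and activates the PHO regulon, which includes PHO84, PHO5, SPL2 and the VTC genes. Surplus phosphate is stored in the vacuole as polyphosphate, which the vacuolar transporter chaperone (VTC) complex makes. PHO89 also depends on calcineurin signalling and is known for its induction by alkaline pH.

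Each deposited value is a log ratio between both channels of an array, taken as log2 by its size. Across the 4788 genes with a value on all arrays, any 2 arrays with swapped dyes had a negative correlation (r from -0.60 to -0.29), so arrays 2 and 4 were multiplied by -1 to bring all arrays to 1 orientation. The labels do not state which dye is the numerator. The sign of every value below therefore gives a side, not a direction: positive values lie on the side of HSP12, a stress-induced small heat shock protein gene with a mean of 2.63 ± 0.58 (SD, n = 4), and negative values on the opposite side. If the ratio is Cy3 over Cy5, the HSP12 side is higher with zymolyase, and if it is Cy5 over Cy3, it is lower with zymolyase. Arrays 3 and 4 stood apart from arrays 1 and 2 in that their turned values moved with coding length (Spearman's rho of 0.45 and 0.40 over 4578 genes, against -0.01 and -0.18 for the first pair). After turning, r was 0.54 for arrays 1 and 2 and 0.60 for arrays 3 and 4. It was 0.29 for arrays 1 and 4 and 0.31 for arrays 2 and 3. For arrays of the same dye orientation r was 0.49 (1 and 3) and 0.52 (2 and 4). Arrays are not tied to cultures in the labels, so whether this split is a split of cultures was not tested. The probe sequences were not used here, and near-identical genes and antisense transcripts may not be told apart.

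PHO89 was the member that changed, and the other 8 tested members did not pass the test. PHO89 encodes a plasma membrane symporter of sodium and phosphate. Its values toward the HSP12 side were 1.01, 1.24, 1.49 and 1.06 on arrays 1 to 4. All 4 arrays lay on 1 side and close together, so that neither the dye orientation nor the split between arrays 1 and 2 and arrays 3 and 4 separated them. The mean was 1.20 ± 0.22 (SD, n = 4), a size of 2.29-fold. Its adjusted p was 6.04e-05 (limma over all genes, n = 4 arrays of 2 cultures), with a 95% interval of 0.72 to 1.68. With arrays paired as 1 with 2 and 3 with 4, the model gave every gene the same standard error (0.24). This p and interval therefore follow the size of the mean, not how close the 4 arrays of PHO89 lay. The intervals of the other tested members have the same width for that reason. Among all tested genes 4.55% changed (218 of 4788), 4.34% toward HSP12 and 0.209% away from it, and PHO89 ranked 91 by size. Over all genes the count was 76 without array 1, 105 without array 2, 195 without array 3 and 143 without array 4. The members' count of 1 in 9 rests on PHO89 alone. PHO89 was called with any 1 array left out (adjusted p from 0.00228 to 0.0267 by limma) and in the 9 other alternatives. That includes the fit without array 3, whose label reads wild type (mean 1.11, adjusted p = 0.00228 by limma). Each culture was hybridised with a dye swap, so the RNA of array 3 is also on a partner array, which stayed in that fit. No fit left out both arrays of a culture, and whether PHO89 depends on that culture was not tested. Without array 3 the other 8 tested members had means from -0.42 (VTC3) to 0.47 (PHM8), and none was called (adjusted p of at least 0.489 by limma). VTC4 lay on the opposite side without array 3 (-0.11) and also without array 1 (-0.06), both with zymolyase RNA in Cy3. It lay on the HSP12 side without array 2 (0.34) or array 4 (0.27), so its side changed with the dye orientation of the array left out.

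The other transporter members gave no such value. PHO84, the main high-affinity symporter of protons and phosphate, had 0.20 on array 1 and 0.01 on array 2 and no value on arrays 3 and 4. Both values lay within the range of the uncalled members, and why the other arrays hold none is not stated. PHO90, a low-affinity transporter, had -0.45, -0.09, 0.00 and 0.69 on arrays 1 to 4. Its arrays spread over both sides, with array 4 highest, and its mean was 0.04 ± 0.48 (SD, n = 4; adjusted p = 0.973 by limma, 95% interval -0.44 to 0.52). The interval of PHO90 lies below that of PHO89, and the difference between both genes was not tested. The gene before PHO89 on its chromosome, PCA1, a metal-transporting ATPase gene, had a mean of 0.26 without a call (adjusted p = 0.790 by limma), and was named after its values were seen.

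**Figure D1:**
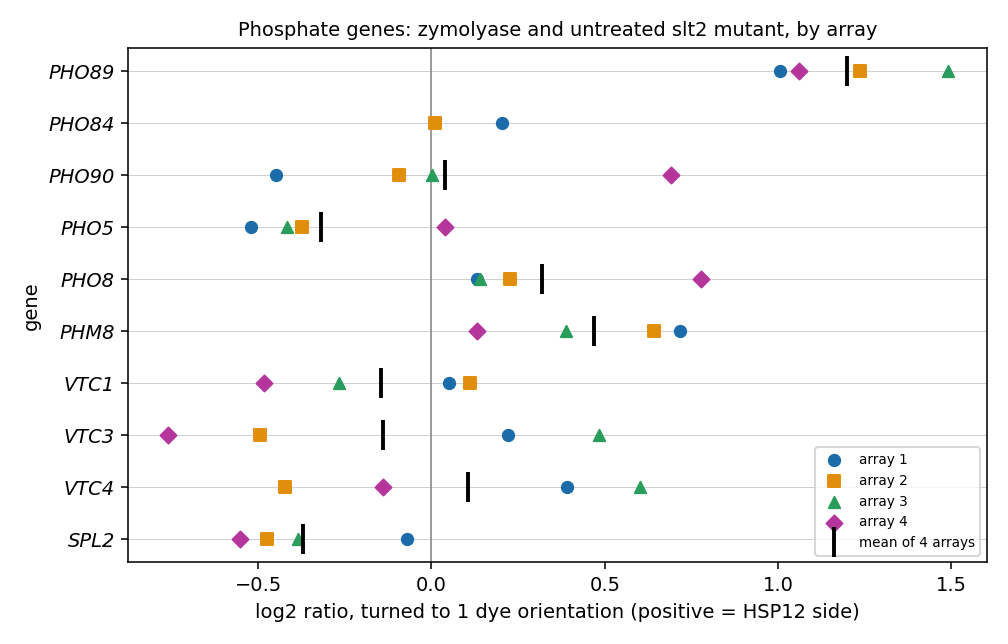
Log2 ratios of the 10 phosphate genes (horizontal axis, positive values on the HSP12 side) on each of the 4 arrays (symbols), with the mean where all 4 arrays held a value (bar). PHO89 stands alone at 1.01 to 1.49 on all arrays, while VTC3 and VTC4 have arrays 1 and 3 on one side of 0 and arrays 2 and 4 on the other.

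Among the 3 phosphatase genes 0 passed the test, also at an unadjusted p under 0.05 (limma), which 11.5% of all tested genes passed, and their means pointed to different sides. PHM8, a lysophosphatidic acid phosphatase and nucleotidase gene, had 0.72, 0.64, 0.39 and 0.13 on arrays 1 to 4. All arrays lay on the HSP12 side, with arrays 1 and 2 above arrays 3 and 4. Its mean of 0.47 ± 0.27 (SD, n = 4) was the next in size after PHO89 among the members, with an adjusted p of 0.454 (limma) and a 95% interval of -0.01 to 0.95. PHO8, the vacuolar alkaline phosphatase gene, had 0.13, 0.23, 0.14 and 0.78 on arrays 1 to 4. Arrays 1 to 3 lay close together and array 4 stood apart. Its mean was 0.32 ± 0.31 (SD, n = 4; adjusted p = 0.697 by limma, 95% interval -0.16 to 0.80). PHO5, the secreted acid phosphatase gene that is the classical reporter of phosphate starvation, had -0.52, -0.37, -0.42 and 0.04. It lay on the opposite side on 3 arrays and near 0 on array 4, with a mean of -0.32 ± 0.25 (SD, n = 4; adjusted p = 0.699 by limma, 95% interval -0.80 to 0.16).

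The other acid phosphatase genes of the PHO5 family had means near that of PHO5. PHO3 (YBR092C), the gene next to PHO5, had -0.58, -0.11, -0.39 and -0.07 on arrays 1 to 4, and PHO11 (YAR071W) had -0.53, -0.49, -0.20 and -0.49. PHO12 (YHR215W) gave -0.22, -0.70, -0.10 and -0.62. Each of these 3 genes lay on the side opposite HSP12 on all 4 arrays, with means of -0.29, -0.43 and -0.41, and none was called (adjusted p from 0.541 to 0.746 by limma). They were named after their values were seen. Over all tested genes 18.5% lay on that side on all 4 arrays. PHO11 and PHO12 are near-identical in sequence and PHO3 and PHO5 are close relatives, and all 4 genes have a coding length of 1404 bases, so their spots may share transcripts and are not independent values. PBY1, the gene after PHO5, had a mean of 0.05.

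Of the 3 VTC genes 0 passed the test, also at an unadjusted p under 0.05 (limma; 11.5% of all tested genes), and VTC3 and VTC4 had values of the same sign under both dye orientations. VTC4 encodes the catalytic subunit of the polyphosphate polymerase, VTC3 a further subunit with an SPX domain, which binds inositol pyrophosphates, and VTC1 a small membrane subunit. As deposited, before any array was turned, VTC3 had 0.22, 0.50, 0.48 and 0.76 on arrays 1 to 4. VTC4 had 0.39, 0.42, 0.60 and 0.14 as deposited. All of these are positive, whichever dye held the zymolyase RNA, whereas PHO89 had 1.01, -1.24, 1.49 and -1.06 as deposited and changed sign with each swap. The same deposited sign on all 4 arrays was held by 12.1% of tested genes and by 2 of the 9 tested members. The part common to both dye orientations was 0.49 for VTC3 and 0.39 for VTC4, with unadjusted p of 0.00660 and 0.0204 and adjusted p of 0.615 for both (limma with a dye term, n = 4 arrays). Unlike the main test, that fit took the 4 arrays as separate replicates, although they hold RNA of 2 cultures. At an unadjusted p under 0.05, 7.83% of genes passed for that dye component, and 0 of 4788 passed when adjusted. This comparison was chosen after the values were seen.

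After turning, VTC3 lay at 0.22 and 0.48 on arrays 1 and 3 and at -0.50 and -0.76 on arrays 2 and 4. Its mean was -0.14 ± 0.59 (SD, n = 4), with an adjusted p of 0.902 (limma) and a 95% interval of -0.62 to 0.34. VTC4 lay at 0.39, -0.42, 0.60 and -0.14 on arrays 1 to 4, with a mean of 0.11 ± 0.47 (SD, n = 4; adjusted p = 0.923 by limma, 95% interval -0.37 to 0.59). VTC1 had 0.05, 0.11, -0.27 and -0.48 on arrays 1 to 4, so that arrays 1 and 2 lay just on the HSP12 side and arrays 3 and 4 on the opposite side. Its mean was -0.15 ± 0.28 (SD, n = 4; adjusted p = 0.898 by limma, 95% interval -0.62 to 0.33). VTC1 is the shortest member, with a coding length of 390 bases, and its mean was -0.02 once the length trend had been taken off each array. VTC4 then had -0.02 as well, while VTC3 moved away from 0, to -0.28. None of the 3 VTC intervals reaches a 2-fold size on either side. VTC2 and VTC5, which encode the remaining subunits of the VTC complexes, had means of -0.16 and 0.17 without a call.

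**Figure D2:**
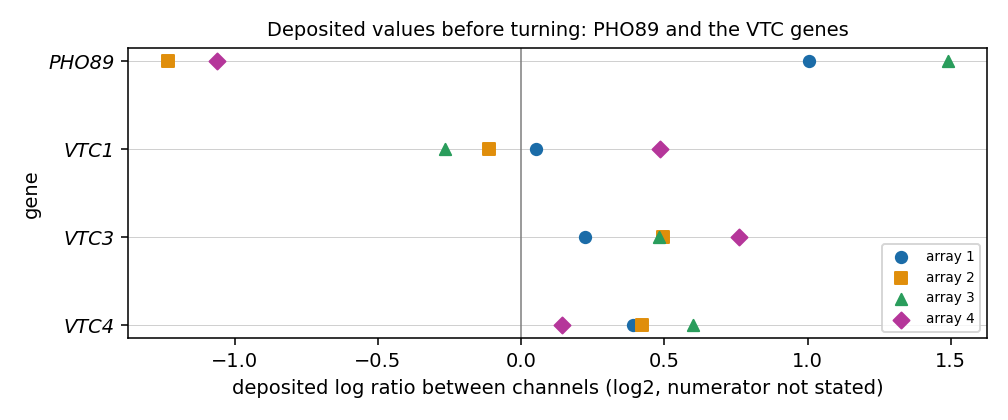
Deposited log ratios of PHO89 and the 3 VTC genes before arrays were turned (horizontal axis, log2, numerator not stated), with a symbol for each array. PHO89 alternates between 1.01 or 1.49 on arrays 1 and 3 and -1.24 or -1.06 on arrays 2 and 4, while all values of VTC3 and VTC4 lie between 0.14 and 0.76.

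SPL2 encodes a small protein that lowers low-affinity phosphate uptake and is itself a target of Pho4. Its values were -0.07, -0.47, -0.39 and -0.55 on arrays 1 to 4, on the side opposite HSP12 on all arrays, with array 1 nearest 0. The mean was -0.37 ± 0.21 (SD, n = 4), the furthest of the members on that side, with an adjusted p of 0.625 (limma) and a 95% interval of -0.85 to 0.11. The gene after SPL2, ARO9, an aromatic aminotransferase gene, was called on the HSP12 side with a mean of 1.01 (adjusted p = 0.00139 by limma), and was named after its values were seen.

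Ordered by their means, the members ran from PHO89 (1.20) through PHM8 (0.47), PHO8 (0.32), VTC4 (0.11), PHO90 (0.04), VTC3 (-0.14), VTC1 (-0.15) and PHO5 (-0.32) to SPL2 (-0.37). The gap between PHO89 and PHM8 was larger than the SD of either gene, and every other gap between neighbours in that order was smaller than the SDs of both genes. The median over the 9 tested members was 0.04, with 5 on the HSP12 side and 4 on the opposite side, against a median of -0.06 over all 4788 tested genes, of which 2035 lay on the HSP12 side. The median size regardless of side was 0.32 for the members and 0.19 over all genes. On all 4 arrays 4 of the 9 members lay on 1 side, against 30.3% of all tested genes. These were PHO89, PHM8 and PHO8 on the HSP12 side (11.8% of all genes) and SPL2 on the opposite side (18.5%). When arrays 1 and 4 and arrays 2 and 3 alone were taken as the cultures, 5 members passed (PHO89, PHM8, PHO8, PHO5 and SPL2), beside 29.6% of all genes.

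**Figure D3:**
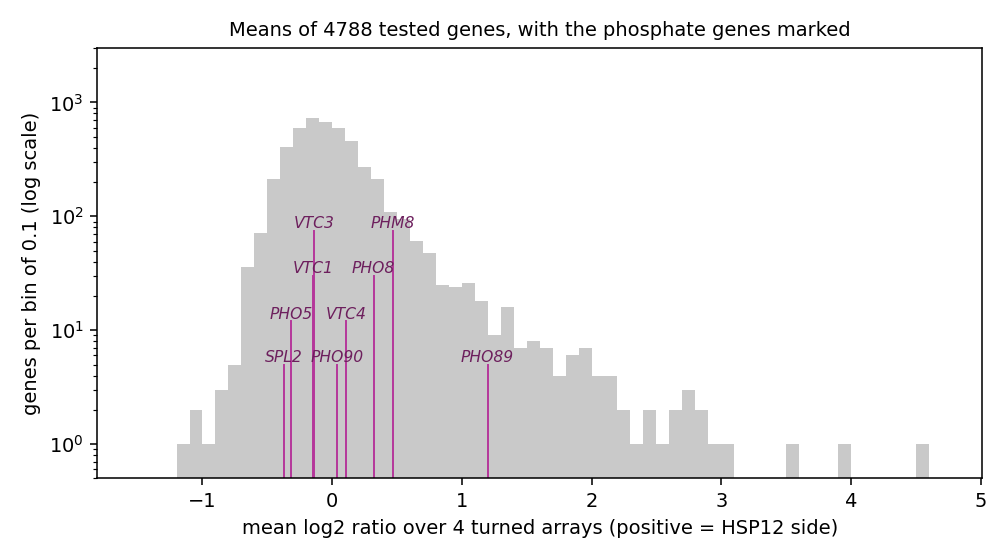
Means over the 4 turned arrays of all 4788 tested genes (grey bars, number of genes per bin on a log axis), with the 9 tested phosphate genes marked. PHO89 lies at 1.20 in the tail on the HSP12 side, and the other members lie between -0.37 and 0.47 in the body of the distribution.

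A wider list of 31 further genes of phosphate handling gave 28 tested genes, of which 3 changed, all on the HSP12 side, beside the background of 4.34% on that side. Its median was 0.02, with 15 genes on the HSP12 side and 13 on the opposite side. PIC2 (YER053C), a mitochondrial carrier of phosphate and copper, had 1.06, 1.24, 0.88 and 0.96 on arrays 1 to 4. Like PHO89 it lay on 1 side on all arrays with a small spread, at a mean of 1.04 ± 0.16 (SD, n = 4; 2.05-fold, adjusted p = 0.000943 by limma). Without array 1 PIC2 lost the call (adjusted p = 0.0537 by limma), and without array 3 it had 1.09 (0.00354). MIR1, the other mitochondrial phosphate carrier gene, had a mean of 0.19 and was not called.

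PHO4 (YFR034C), which encodes the transcription factor of the PHO regulon, was called on the strength of arrays 3 and 4. Its values were -0.46, 0.13, 2.07 and 2.12 on arrays 1 to 4, so that arrays 3 and 4 were high and arrays 1 and 2 lay on both sides of 0. The mean was 0.96 ± 1.32 (SD, n = 4; adjusted p = 0.00276 by limma). With arrays paired as 1 with 2 and 3 with 4, the model gave every gene the same standard error (0.24), so a gene with such a spread could pass. PHO4 lost the call in 10 alternatives and kept it in 3. It lost the call without any 1 of the 4 arrays (adjusted p from 0.112 to 0.837 by limma) and with robust variance moderation (0.815). The same held with the 4 arrays as separate replicates (0.196) and once arrays were centred on their medians (0.110). A mean above 1 on arrays 3 and 4 together with a mean below 0 on arrays 1 and 2 was held by 40 of 4788 genes (0.835%). In the wider list 3 of 28 held it (PHO4, PHO87 and SYG1), and 0 of the 9 tested members. This cut was not planned and follows the values of PHO4, so these counts are a description. PHO91 and VIP1, with means of 0.01 and 0.07 on arrays 1 and 2, fell just outside it. The coding length of PHO4, 939 bases, is below those of PHO91 and PHO87, and its mean with the length trend removed was 1.01, without a call (adjusted p = 0.256 by limma).

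The transporter genes PHO91 and PHO87, which with PHO90 encode transporters that carry an SPX domain, were split between arrays in the same way. PHO91 (YNR013C), the gene of a vacuolar phosphate exporter, had -0.24, 0.27, 1.32 and 1.66 on arrays 1 to 4, with a mean of 0.75 ± 0.89 (SD, n = 4; adjusted p = 0.0471 by limma). PHO87 (YCR037C), a low-affinity transporter gene, had -0.25, 0.09, 1.13 and 1.74, with a mean of 0.68 ± 0.92 (SD, n = 4; adjusted p = 0.102 by limma). Both were high on arrays 3 and 4 alone. Their coding lengths of 2685 and 2772 bases are near that of PHO90 (2646 bases), and the split follows the arrays whose values moved with coding length. The part of coding length in these results was not separated from other differences between the arrays. With the length trend removed, PHO91 had 0.60 and PHO87 0.52, and neither was called (adjusted p = 0.210 and 0.267 by limma). Without array 3 PHO4 had 0.73, PHO91 0.66 and PHO87 0.62. PHO91 also lost its call without any 1 of the 4 arrays (adjusted p from 0.0929 to 0.777 by limma). VIP1, an inositol pyrophosphate synthase gene with a coding length of 3441 bases, showed the same split (-0.17, 0.30, 0.93 and 1.18 on arrays 1 to 4) and was not called (adjusted p = 0.261 by limma). SYG1 (YIL047C), a gene of 2709 bases that encodes a plasma membrane protein with an SPX domain, had -0.26, -0.23, 0.99 and 1.19 and was not called (adjusted p = 0.549 by limma).

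**Figure D4:**
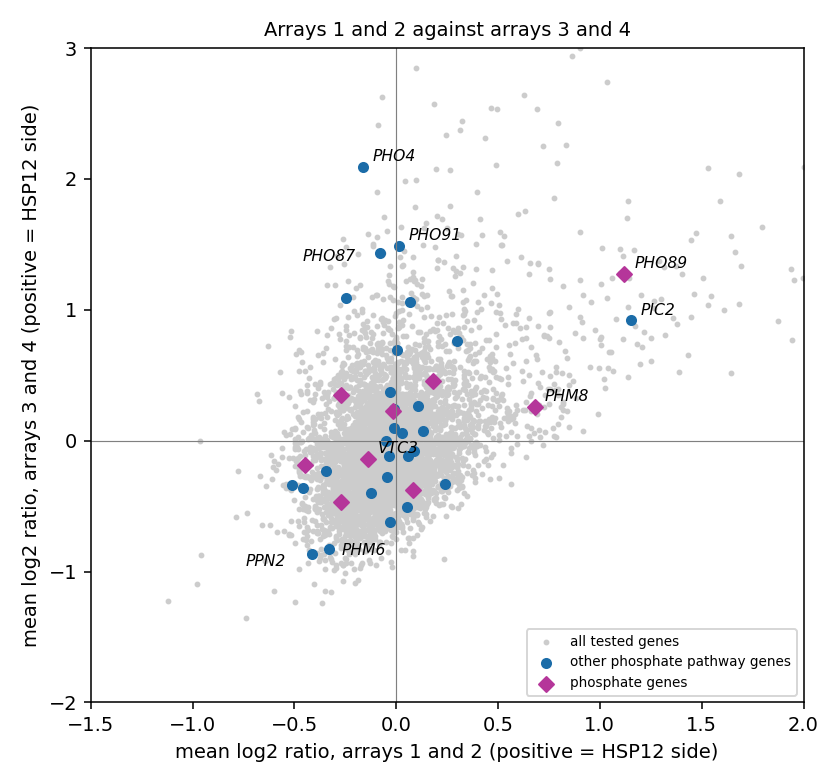
Mean log2 ratio on arrays 1 and 2 (horizontal axis) against that on arrays 3 and 4 (vertical axis), positive values on the HSP12 side, for all tested genes (grey), the other phosphate pathway genes (circles) and the phosphate genes (diamonds), with 39 genes outside the range shown. PHO89 (1.12 and 1.28) and PIC2 (1.15 and 0.92) lie high on both axes, while PHO4 (-0.16 and 2.09), PHO91 (0.01 and 1.49) and PHO87 (-0.08 and 1.43) lie high on arrays 3 and 4 alone.

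On the side opposite HSP12 the wider list had 0 called genes, and 2 of 28, PPN2 and PHM6, at an unadjusted p under 0.05 (limma), beside 2.97% of all tested genes. On both sides together 8 of 28 passed at that unadjusted threshold, beside 11.5% of all tested genes. The others were PIC2, PHO4, PHO91, PHO87, VIP1 and the polyphosphatase gene PPN1 (mean 0.53, adjusted p = 0.318 by limma). Of these, PHO4, PHO91, PHO87 and VIP1 were high on arrays 3 and 4 alone. PPN2 (YNL217W), a vacuolar endopolyphosphatase gene, had -0.37, -0.46, -0.73 and -1.01 on arrays 1 to 4, with a mean of -0.64 ± 0.29 (SD, n = 4; adjusted p = 0.143 by limma). PPN2 passed in 3 alternatives, with the 4 arrays as separate replicates (adjusted p = 0.0484), with robust variance moderation (0.0487) and with arrays 1 and 4 and arrays 2 and 3 as the cultures (0.00111), and over all alternatives its adjusted p by limma ran up to 0.264. PHM6 (YDR281C), a small gene known to respond to phosphate starvation, had -0.18, -0.47, -0.58 and -1.08, with a mean of -0.58 ± 0.38 (SD, n = 4; adjusted p = 0.234 by limma). Both lay on that side on all 4 arrays, with array 4 furthest from 0 in each. The 5 other phosphatase and diesterase genes had means on that side (-0.43 to -0.03), as had 57.5% of all tested genes, with 0 called and 0 at an unadjusted p under 0.05 (limma; 11.5% of all genes). The 5 include PHO3, PHO11 and PHO12, whose spots may share transcripts. Of the 8 tested genes of phosphate signalling 1 was called, PHO4, beside 4.55% of all tested genes. That call rested on arrays 3 and 4. The means of the Pho85 kinase gene, its cyclin gene PHO80 and its inhibitor gene PHO81 were 0.10, -0.32 and 0.12, none of them called.

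**Figure D5:**
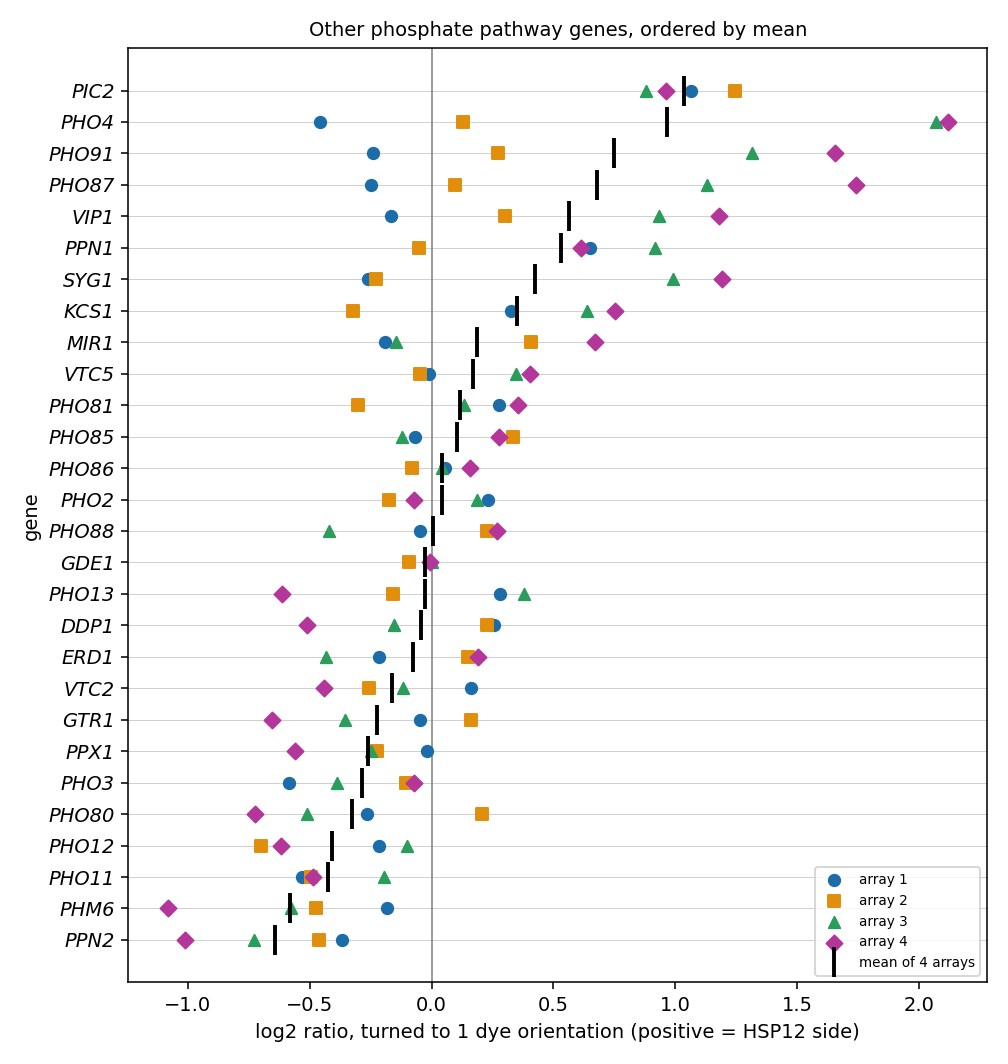
Log2 ratios of the 28 other phosphate pathway genes with a value on all 4 arrays (horizontal axis, positive values on the HSP12 side), ordered by mean (bar), with a symbol for each array. PIC2 has all arrays between 0.88 and 1.24, while PHO4, PHO91 and PHO87 have arrays 3 and 4 above 1.10 and arrays 1 and 2 between -0.46 and 0.27.

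Genes outside the list whose values over the 4 arrays were nearest to those of PHO89, by Euclidean distance, were NPP2 (YEL016C, distance 0.24), ALD6 (YPL061W, 0.30) and DAK1 (YML070W, 0.37). NPP2, a nucleotide pyrophosphatase and phosphodiesterase gene, had 0.98, 1.13, 1.31 and 1.17 on arrays 1 to 4 and was called (adjusted p = 0.000132 by limma). ALD6, a cytosolic aldehyde dehydrogenase gene, had a mean of 1.19 and DAK1, a dihydroxyacetone kinase gene, one of 1.28. Likeness here rests on 4 values per gene and is a description.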

How the data were processed

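Two-colour arrays of 1 group of 4, numbered as in their titles, were read from the deposited table. Per the labels, cDNA carried Cy3-dUTP or Cy5-dUTP. The table deposited by the authors holds log ratios of both channels, taken as log2 by their size. The base, numerator, background correction, normalization and filter behind them are not stated in the labels or the table. Their medians were -0.02, 0.05, -0.10 and 0.02 on arrays 1 to 4, with SDs of 0.36, 0.45, 0.64 and 0.63, and no centring was added. The labels do not say whether the cultures were independent beyond being different.

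Of 6209 table rows, 2 control spots were left out. Of 6207 reading frames, 5677 matched a locus tag of the RefSeq gene table (assembly R64), 23 of them through a synonym, and 4788 had values on all 4 arrays. Coding length is the span from start to stop.

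Arrays were averaged by culture, and limma (version 3.58.1, R 4.3.3; lmFit and eBayes) was fitted in 2 ways, with arrays 1 and 2 as one culture and 3 and 4 as the other, and with arrays 1 and 4 and arrays 2 and 3 so joined. The larger p per gene was kept and adjusted by the Benjamini-Hochberg method over all tested genes, with calls under 0.05, and intervals span both pairings' 95% intervals. With 1 array left out, the other array of its culture stood alone in each pairing. The mean given is then the average over both pairings, so that arrays weighed unequally and the dye did not cancel. The model gave prior degrees of freedom of infinity and 10.0 for the 2 pairings of all 4 arrays. Each SD is taken over 4 arrays of different cultures and dye orientations. The length trend was removed by loess (span 0.5) on log2 length. The 10 members, the 31 further genes, the tests and the alternatives were chosen with earlier results of these data known. The genes named are the 10 members, the called genes of the wider list and the next 4 by size, HSP12, SLT2 and the 3 genes nearest to PHO89, and any other gene was named with its values known. No sequences are printed.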

Additional observations from a re-analysis of the deposited data

Results flagged for a closer look

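In 3 genes 1 array stood apart from the other 3 by Dixon's gap over range. PHO8 had a ratio of 0.856 from array 4 (0.78, against 0.13 to 0.23 on the others). PHO11 had 0.862 from array 3 (-0.20, against -0.53 to -0.49). GDE1, a glycerophosphodiesterase gene, had 0.869 from array 2 (-0.09, against -0.01 to 0.00), a gap that is small in size. Chance flags about 1 in 20 groups, and 37 genes were looked at.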

How the results depend on the processing

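The count of members changed was 1 (PHO89) in the main result and in all alternatives except the pairing of arrays 1 with 4 and 2 with 3 alone, where it was 5 (PHO89, PHM8, PHO5, PHO8 and SPL2), beside 1415 of all genes (29.6%) and 12 of the wider list. The wider list had 3 genes changed, and 1 with a dye term, after centring, after scaling to equal median absolute deviation or with the length trend removed. Leaving out 1 array at a time gave 0 to 1 genes of the wider list and 76 to 195 of all genes, and 1 of the members each time. Means near 0 changed side: PHO90 had -0.071 after scaling and -0.11 with the length trend removed, VTC4 had -0.016 with the length trend removed, and with 1 array left out PHO90 ran from -0.19 to 0.22, VTC4 from -0.11 to 0.34 and VTC3 from -0.42 to 0.14, none of them called. The causes were not tested. Pairing lies within each array, which already sets zymolyase against untreated RNA, and with 1 group in the series no further pairing was made. Signal over background is unknown, and the number of arrays limits the precision.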
